A study of Homo sapiens with 12 samples.

Results

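Aminoacyl-tRNA synthetases are the enzymes that join each amino acid to its transfer RNA. A list of 35 such genes was followed here, 19 for the cytosolic enzymes and 16 for the mitochondrial ones, out of 58735 genes in the count table. Genes were matched by symbol, or by the older symbol without the final 1, and all 35 were found. All 35 also passed the filter on low counts, among 17290 genes that did. RNA was sequenced from U2OS cells, a line established from a human osteosarcoma, in 4 groups of 3 libraries. The cells had received 10 µM TH10785 and 10 µM PNKP1i together, 10 µM TH10785 alone, 10 µM PNKP1i alone, or DMSO, the solvent, and each treatment lasted 24 h. TH10785 activates OGG1, a DNA glycosylase that removes oxidised guanine. The series record spells the compound TH10587, and the sample labels' spelling is used here. PNKP1i is known here only by its label.

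The cytosolic synthetases are made from nuclear genes and charge the transfer RNAs used by cytosolic ribosomes. GARS1 and KARS1, known to give the mitochondrial enzyme as well, were counted as cytosolic by their symbols and have no mitochondrial partner here. The mitochondrial enzymes are nuclear-encoded too, but are imported to charge the transfer RNAs of the mitochondrial genome. Several cytosolic synthetases sit together in the multisynthetase complex. An uncharged transfer RNA activates the kinase GCN2, which leads to translation of the transcription factor ATF4, and many cytosolic synthetase genes are known ATF4 targets.

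Depth ran from 16225339 to 21546369 counts per library. Levels are given as CPM, counts relative to the library total after scaling by TMM, and the 3 values of a group are listed from replicate 1 to replicate 3. The labels do not say that replicates came from separate cultures, so p-values measure the spread between these libraries, which may be technical. A gene was called when edgeR's quasi-likelihood test gave a Benjamini-Hochberg adjusted p under 0.05 over the 17290 genes, and "rose" and "fell" are used only of called genes. The third TH10785 library stood apart. In it, genes with under 40% GC had a median log2 value -0.63 away from the DMSO mean, against 0.21 and 0.10 in its 2 partners. Of 9 osteoblast and mesenchymal markers, 5 were expressed, and SP7, BGLAP, IBSP and COL1A2 did not pass the filter on low counts. The summed level of the 9 was 2084 to 2574 CPM with both compounds, 3879 to 4539 after TH10785 alone, 4260 to 4383 after PNKP1i alone and 4072 to 4855 in DMSO cells. Of the 5, COL1A1, SPARC, RUNX2 and VIM fell with both compounds, while ALPL rose with both (1.47) and with TH10785 alone (1.82, on the log2 scale over DMSO). Markers of epithelial, leukocyte, endothelial and liver cells summed to 5.38 to 8.85 CPM in every library. The part of these shifts in the results below was not tested. In bulk RNA, fewer cells of a kind and less RNA per cell cannot be told apart.

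Cytosolic synthetase RNA was far more abundant than mitochondrial synthetase RNA in each group. Per kilobase of exon, the median cytosolic gene stood at 48.1 CPM with both compounds, 32.2 after TH10785 alone, 34.8 after PNKP1i alone and 33.9 in DMSO cells. The median mitochondrial gene stood at 7.01, 6.66, 7.07 and 6.76 CPM per kilobase in the same groups. In DMSO cells GARS1, the glycine enzyme, was highest at 87.3 ± 3.86 CPM per kilobase (SD, n = 3), and VARS1, the valine enzyme, followed at 82.5 ± 13.0, within its spread. HARS1, the histidine enzyme, at 8.35 ± 0.66, and LARS1, the leucine enzyme, at 8.77 ± 0.113, were the lowest cytosolic genes per kilobase, and their ranges also met. The length used joins all annotated exons of a gene, 7853 bases for HARS1 and 8118 for LARS1. Not divided by length, HARS1 had 65.6 ± 5.18 and LARS1 71.2 ± 0.917 CPM, both above NARS1, the asparagine enzyme, at 53.6 ± 1.48. IARS2, for isoleucine, led the mitochondrial genes at 23.9 ± 2.31 CPM per kilobase in DMSO cells. SARS2, for serine, was last in each group and had only 0.929 ± 0.126.

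With both compounds together, the cytosolic synthetases rose broadly and the mitochondrial ones did not. Against DMSO, 13 of the 19 cytosolic genes rose and 2 fell, while 2 of the 16 mitochondrial genes rose and 5 fell. Of all tested genes, 41% changed in that comparison, 21.3% upward and 19.7% downward, so the 7 changed mitochondrial genes lie near the background share and the 13 cytosolic rises lie above it. The median log2 fold change was 0.56 over the cytosolic genes, -0.12 over the mitochondrial genes and 0.04 over all genes tested. The summed level of the 19 cytosolic genes was 5374 ± 434 CPM with both compounds, 4281 ± 314 after TH10785 alone, 4788 ± 398 after PNKP1i alone and 3911 ± 158 in DMSO cells (SD, n = 3). The mitochondrial sum was 550.2 ± 12.6 CPM with both compounds, 596 ± 23.4 after TH10785 alone, 617 ± 23.8 after PNKP1i alone and 604 ± 9.28 in DMSO cells.

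**Figure D1:**
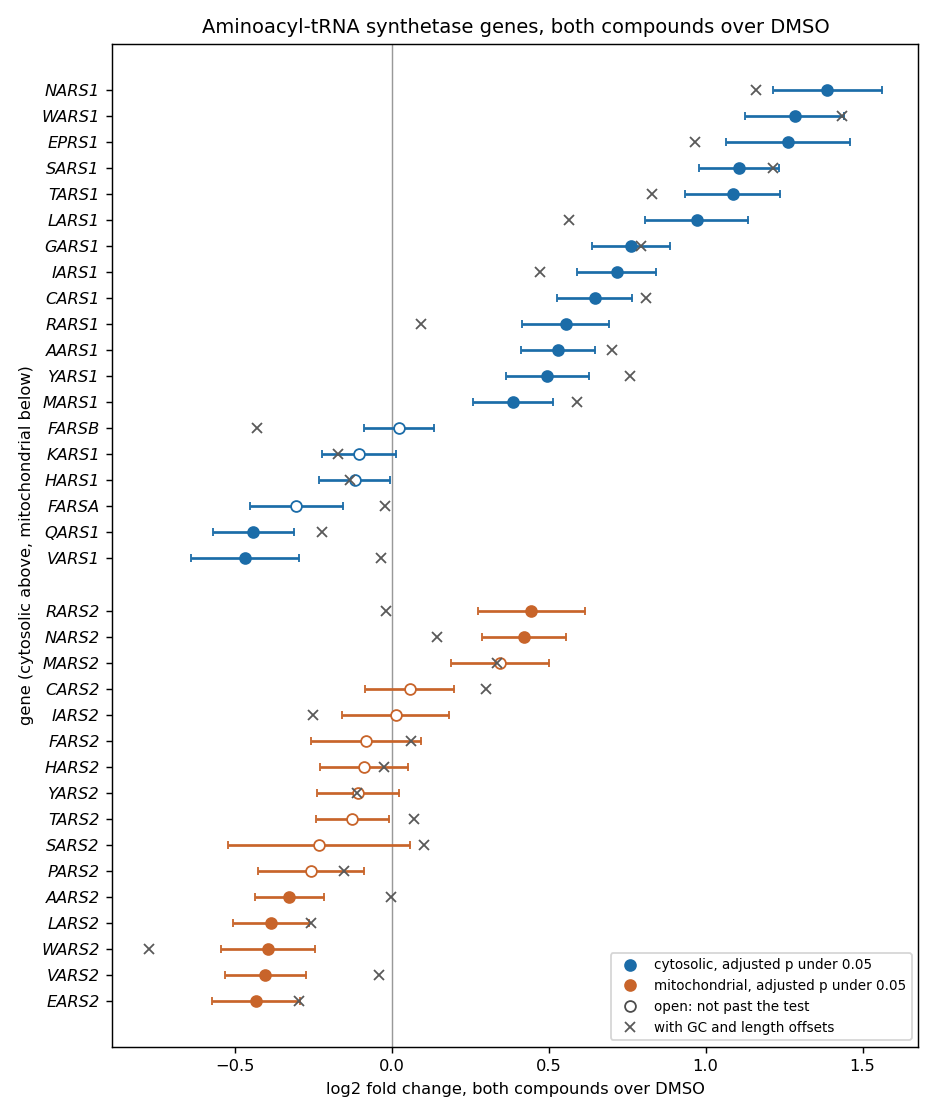
Log2 fold change of the 35 synthetase genes (x axis) for both compounds over DMSO, with cytosolic genes above and mitochondrial genes below on the y axis. Points are fitted values with bars of 1 SE, filled where the adjusted p is under 0.05, and crosses show the value with offsets for GC content and length. The cytosolic points run from -0.47 to 1.39 and the mitochondrial points from -0.43 to 0.44.

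NARS1 (ENSG00000134440, chromosome 18, 57600656 to 57622213, GRCh38), which charges asparagine transfer RNA, had the largest rise. It had 148, 129 and 145 CPM with both compounds, 68.6, 65.7 and 36.0 after TH10785 alone, 54.0, 55.5 and 58.7 after PNKP1i alone and 53.4, 55.2 and 52.3 in DMSO cells. The 3 libraries with both compounds lie above every other library, and the third TH10785 library is the lowest of the 12. Its fold change over DMSO was 2.62 (log2 1.39, SE 0.17, adjusted p = 2.42e-05).

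WARS1 (ENSG00000140105, chromosome 14, 100333788 to 100376805), the tryptophan enzyme, had 321, 211 and 210.3 CPM with both compounds, 116, 107 and 137 after TH10785 alone, 179, 142 and 172 after PNKP1i alone and 98.5, 101 and 105 in DMSO cells. Libraries with both compounds were highest and those with PNKP1i came next, with no overlap between them or with DMSO. The rise with both compounds was 2.44-fold (log2 1.28, SE 0.16, adjusted p = 1.97e-05). EPRS1 (ENSG00000136628, chromosome 1, 219968601 to 220046658), a fused enzyme that charges both glutamate and proline transfer RNA, had 207, 148 and 192 CPM with both compounds, 82.1, 68.6 and 39.9 after TH10785 alone, 61.6, 68.2 and 80.6 after PNKP1i alone and 71.4, 78.2 and 78.4 in DMSO cells. Each single-compound group overlapped DMSO, and the gene rose 2.40-fold with both compounds (log2 1.26, SE 0.20, adjusted p = 0.000147).

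SARS1 (ENSG00000031698, chromosome 1, 109213918 to 109238169), the serine enzyme, had 601, 529 and 471 CPM with both compounds, 289, 302 and 359.6 after TH10785 alone, 403, 349 and 401 after PNKP1i alone and 258, 255 and 230.0 in DMSO cells. No library of one group lay within the range of another except that the third TH10785 library, at 359.6 CPM, exceeded the lowest PNKP1i library. SARS1 rose 2.15-fold with both compounds (log2 1.11, SE 0.13, adjusted p = 1.27e-05). TARS1 (ENSG00000113407, chromosome 5, 33440696 to 33469539), for threonine, had 282, 265 and 277 CPM with both compounds, 170.0, 162 and 98.8 after TH10785 alone, 130.4, 132 and 132 after PNKP1i alone and 128, 128 and 132 in DMSO cells, and rose 2.12-fold (log2 1.09, SE 0.15, adjusted p = 6.44e-05). LARS1 (ENSG00000133706, chromosome 5, 146113038 to 146182660), which also senses leucine for the mTORC1 pathway, had 148, 122 and 148 CPM with both compounds, 81.9, 74.5 and 44.7 after TH10785 alone, 64.6, 67.7 and 65.2 after PNKP1i alone and 70.8, 70.5 and 72.2 in DMSO cells. In both genes the 3 libraries with both compounds were the highest of the 12 and the third TH10785 library the lowest. The PNKP1i libraries overlapped DMSO for TARS1 and lay below it for LARS1. LARS1 rose 1.96-fold (log2 0.97, SE 0.16, adjusted p = 0.000282).

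The other 7 risers moved by less. GARS1 had 710.3, 588 and 549 CPM with both compounds, 365, 373 and 351 after TH10785 alone, 489, 413 and 513 after PNKP1i alone and 347, 362 and 379 in DMSO cells, and rose by 0.76 on the log2 scale (SE 0.12). AARS1, the alanine enzyme, had 478, 424 and 419 CPM with both compounds, 349.6, 343 and 406 after TH10785 alone, 462, 385 and 431 after PNKP1i alone and 292, 329.5 and 293 in DMSO cells, and rose by 0.53 (SE 0.12). For AARS1 the PNKP1i libraries overlapped those with both compounds, whereas for GARS1 the 2 groups did not overlap. IARS1 (isoleucine) rose by 0.72, CARS1 (cysteine) by 0.65, RARS1 (arginine) by 0.56, YARS1 (tyrosine) by 0.50 and MARS1 (methionine) by 0.39, with adjusted p between 0.00041 and 0.0223. In all 13 genes the 3 libraries with both compounds lay above the 3 DMSO libraries, as did those of 28.4% of all tested genes, while 25.2% lay below. The MARS1 call was lost when any 1 of the 3 DMSO libraries was left out. Of the MARS1 exon bases, 12.4% lie over genes on the opposite strand, DDIT3 among them, and whether counting used the strand is not given by the sources used. Exon bases shared with other genes made up 10.6% in WARS1, 8.38% in HARS1, 22% in VARS2 and 15.8% in HARS2, so reads of these genes may be split or left out.

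**Figure D2:**
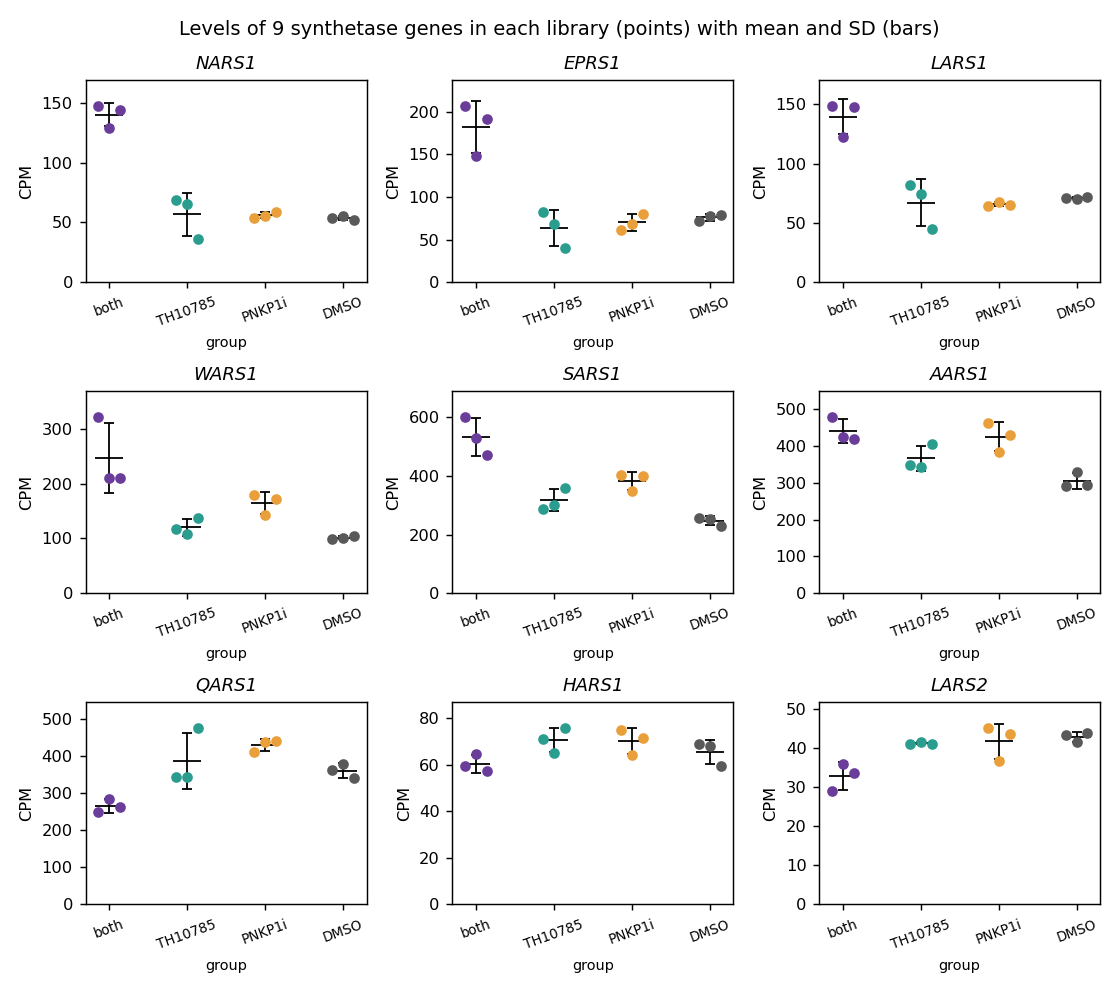
CPM (y axis, from 0) of 9 synthetase genes in each of the 12 libraries, by group (x axis: both compounds, TH10785, PNKP1i, DMSO). Points are libraries and bars are the mean and SD of 3. NARS1, EPRS1 and LARS1 are high only with both compounds, and QARS1 and LARS2 are lowest with both compounds. WARS1, SARS1 and AARS1 also lie above DMSO with PNKP1i and with TH10785, where none passed edgeR's test.

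Of the remaining 6 cytosolic genes, 2 fell and 4 did not pass the test. QARS1 (ENSG00000172053, chromosome 3, 49095932 to 49105135), the glutamine enzyme and a member of the multisynthetase complex, had 251, 286 and 262 CPM with both compounds, 345, 345 and 476 after TH10785 alone, 412, 438 and 442 after PNKP1i alone and 364, 379 and 340.4 in DMSO cells. All 3 libraries with both compounds lay under all others, and QARS1 fell to 0.737 of the DMSO level (log2 -0.44, SE 0.13, adjusted p = 0.0126). VARS1 had 412, 337 and 339 CPM with both compounds, against 411, 554 and 539.5 in DMSO cells, with overlapping groups, and fell by 0.47 on the log2 scale (adjusted p = 0.0381). HARS1 (-0.12), KARS1, the lysine enzyme (-0.10), and FARSA and FARSB, the 2 kinds of subunit of the phenylalanine enzyme (-0.30 and 0.02), did not pass the test. Leaving out the second DMSO library removed the calls of both QARS1 and VARS1. Leaving out the third DMSO library, the first PNKP1i library, or the second or the third library with both compounds removed that of VARS1.

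Risers were found inside and outside the multisynthetase complex. Of its 7 synthetases, 5 rose (EPRS1, IARS1, LARS1, MARS1 and RARS1), QARS1 fell, and KARS1 did not pass, with a median log2 fold change of 0.56. Of the 12 cytosolic genes outside the complex, 8 rose and 1 fell, with a median of 0.59. Of all tested genes, 21.3% rose and 19.7% fell in this comparison. By catalytic class, all 9 cytosolic class I genes were called, 7 upward and 2 downward. The 2 falls, QARS1 and VARS1, and the rise of RARS1 were not kept with offsets for GC content and length. Of the 9 cytosolic class II genes, 5 rose and none fell, though FARSB was called downward with those offsets. EPRS1, which joins an enzyme of each class, was counted in neither.

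RefSeq promoter windows, 250 bases before to 50 bases after a start site on GRCh38.p14, were found for 30 of the 35 genes. They were searched on both strands for TGATGNAA, a core of the C/EBP-ATF response element through which ATF4 is known to bind. The motif was in 3.62% of 35116 windows and in 4.46% of 27305 genes with a window. It was in 7 of 16 cytosolic synthetase genes and in 1 of 14 mitochondrial ones, YARS2. Among cytosolic genes with a window it was in 7 of the 11 that rose with both compounds (AARS1, CARS1, GARS1, IARS1, MARS1, NARS1 and TARS1) and in 0 of the 5 that did not. The risers EPRS1, RARS1, SARS1 and WARS1 had no match in their windows. The windows below, each on the strand of its gene, are those of the 4 holders with the smallest p with both compounds. They lie at chr18:57621787-57622086 (minus strand), chr5:33440715-33441014 (plus strand), chr7:30594628-30594927 (plus strand) and chr9:92293648-92293947 (minus strand). Capitals mark the match, which in TARS1, GARS1 and IARS1 is on the opposite strand and so reads reversed and complemented.
NARS1: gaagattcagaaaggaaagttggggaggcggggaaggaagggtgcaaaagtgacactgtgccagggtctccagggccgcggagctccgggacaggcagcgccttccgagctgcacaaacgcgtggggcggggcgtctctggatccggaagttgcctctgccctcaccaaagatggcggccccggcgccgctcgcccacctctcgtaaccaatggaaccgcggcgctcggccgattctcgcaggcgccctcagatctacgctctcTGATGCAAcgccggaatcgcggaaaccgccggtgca
TARS1: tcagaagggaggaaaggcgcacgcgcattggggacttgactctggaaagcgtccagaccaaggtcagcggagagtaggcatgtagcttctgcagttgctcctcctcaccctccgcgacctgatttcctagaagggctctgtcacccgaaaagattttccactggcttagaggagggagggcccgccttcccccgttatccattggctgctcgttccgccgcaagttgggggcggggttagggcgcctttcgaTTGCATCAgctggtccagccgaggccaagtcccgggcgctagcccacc
GARS1: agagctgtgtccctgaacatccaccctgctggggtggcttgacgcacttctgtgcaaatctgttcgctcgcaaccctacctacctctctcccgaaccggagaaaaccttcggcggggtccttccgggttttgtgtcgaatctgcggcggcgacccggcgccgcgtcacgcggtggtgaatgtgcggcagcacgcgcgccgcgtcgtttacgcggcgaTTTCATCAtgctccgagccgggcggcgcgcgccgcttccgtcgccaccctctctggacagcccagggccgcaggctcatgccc
IARS1: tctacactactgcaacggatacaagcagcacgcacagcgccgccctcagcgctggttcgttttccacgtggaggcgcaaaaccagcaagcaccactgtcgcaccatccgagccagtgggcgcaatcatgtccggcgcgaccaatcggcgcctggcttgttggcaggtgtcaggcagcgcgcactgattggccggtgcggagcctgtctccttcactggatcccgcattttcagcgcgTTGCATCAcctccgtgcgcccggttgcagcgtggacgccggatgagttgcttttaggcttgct
The first letter of the match lies at position 14 in NARS1 and 2 in TARS1, counted from the start site as 0, and at -33 in GARS1 and -13 in IARS1. In CARS1 and MARS1 it lies at -2 and -4, and in AARS1 at -187. A match describes the letters and not a bound site.

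HARS1 and HARS2, the cytosolic and mitochondrial histidine enzymes, are shown for contrast, as neighbours that point away from each other on chromosome 5 and that both did not pass the test. Their windows, chr5:140691321-140691620 (minus strand) and chr5:140691205-140691504 (plus strand), share 184 of 300 bases and hold no TGATGNAA.
HARS1: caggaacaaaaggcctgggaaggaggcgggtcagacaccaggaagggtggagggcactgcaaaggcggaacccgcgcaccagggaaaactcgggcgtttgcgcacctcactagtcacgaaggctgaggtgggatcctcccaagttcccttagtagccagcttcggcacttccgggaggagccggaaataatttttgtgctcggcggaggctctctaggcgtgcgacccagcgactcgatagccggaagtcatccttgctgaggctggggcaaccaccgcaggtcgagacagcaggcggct
HARS2: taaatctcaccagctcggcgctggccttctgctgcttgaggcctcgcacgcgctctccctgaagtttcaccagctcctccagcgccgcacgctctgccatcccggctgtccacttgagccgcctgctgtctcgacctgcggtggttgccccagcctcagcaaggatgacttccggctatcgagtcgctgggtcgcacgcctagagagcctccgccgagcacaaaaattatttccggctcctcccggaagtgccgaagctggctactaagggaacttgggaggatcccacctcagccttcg
HARS1 had 59.6, 64.6 and 57.2 CPM with both compounds, against 69.0, 68.2 and 59.6 in DMSO cells. HARS2 had 28.8, 25.7 and 22.1 CPM with both compounds, against 30.9, 25.2 and 25.4 in DMSO cells, and both genes overlapped between the groups. Counts for the other motifs searched follow, and no difference between motifs was tested. TGACNNNGC, a core of the antioxidant response element, was in 13.3% of all windows and 16.1% of genes, in 3 of the 11 cytosolic risers and in 1 of the 5 others. CACGTG, an E-box, was in 7.26% of all windows and 8.77% of genes, in 1 of 16 cytosolic genes and in 3 of 14 mitochondrial genes. 

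Among mitochondrial synthetases the changes with both compounds were small and went both ways. LARS2, for leucine, had 28.9, 35.9 and 33.5 CPM with both compounds, 41.0, 41.4 and 41.0 after TH10785 alone, 44.9, 36.5 and 43.5 after PNKP1i alone and 43.1, 41.4 and 43.8 in DMSO cells. The libraries with both compounds were the lowest, and LARS2 fell by 0.38 on the log2 scale (SE 0.12, adjusted p = 0.0186). EARS2 (glutamate) fell by 0.43, VARS2 (valine) by 0.40, WARS2 (tryptophan) by 0.39 and AARS2 (alanine) by 0.33. RARS2, for arginine, and NARS2, for asparagine, rose by 0.44 and 0.42. NARS2 had 35.9, 42.7 and 37.4 CPM with both compounds, against 32.2, 29.6 and 24.8 in DMSO cells, so the groups did not overlap.

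The remaining 9 mitochondrial genes did not pass. MARS2, for methionine, had 21.1, 15.5 and 15.5 CPM with both compounds, against 12.4, 14.8 and 13.7 in DMSO cells, with no overlap (log2 0.35, adjusted p = 0.0877). IARS2 (0.01), CARS2 (0.06), FARS2 (-0.08), HARS2 (-0.09), YARS2 (-0.11), TARS2 (-0.12), SARS2 (-0.23) and PARS2, for proline (-0.26), complete the set. The mitochondrial counts changed when single libraries were left out. The 5 falls became 2, 3 and 1 without replicate 1, 2 and 3 of the libraries with both compounds. They became 2, 1 and 2 without replicate 1, 2 and 3 of DMSO. Of all genes, 15.4%, 17.7% and 16% fell in the first 3 of these fits, against 19.7% with all libraries. In the 3 without a DMSO library 17.1%, 14.8% and 16% fell. The 2 rises became 0 without the second or the third DMSO library or the second library with both compounds. There 14.2%, 16.1% and 20.6% of all genes rose, against 21.3% with all libraries. The rises became 1 without the second or the third PNKP1i library, the second TH10785 library or the first library with both compounds. There 19.8%, 19.2%, 19.7% and 16.5% of all genes rose.

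**Figure D3:**
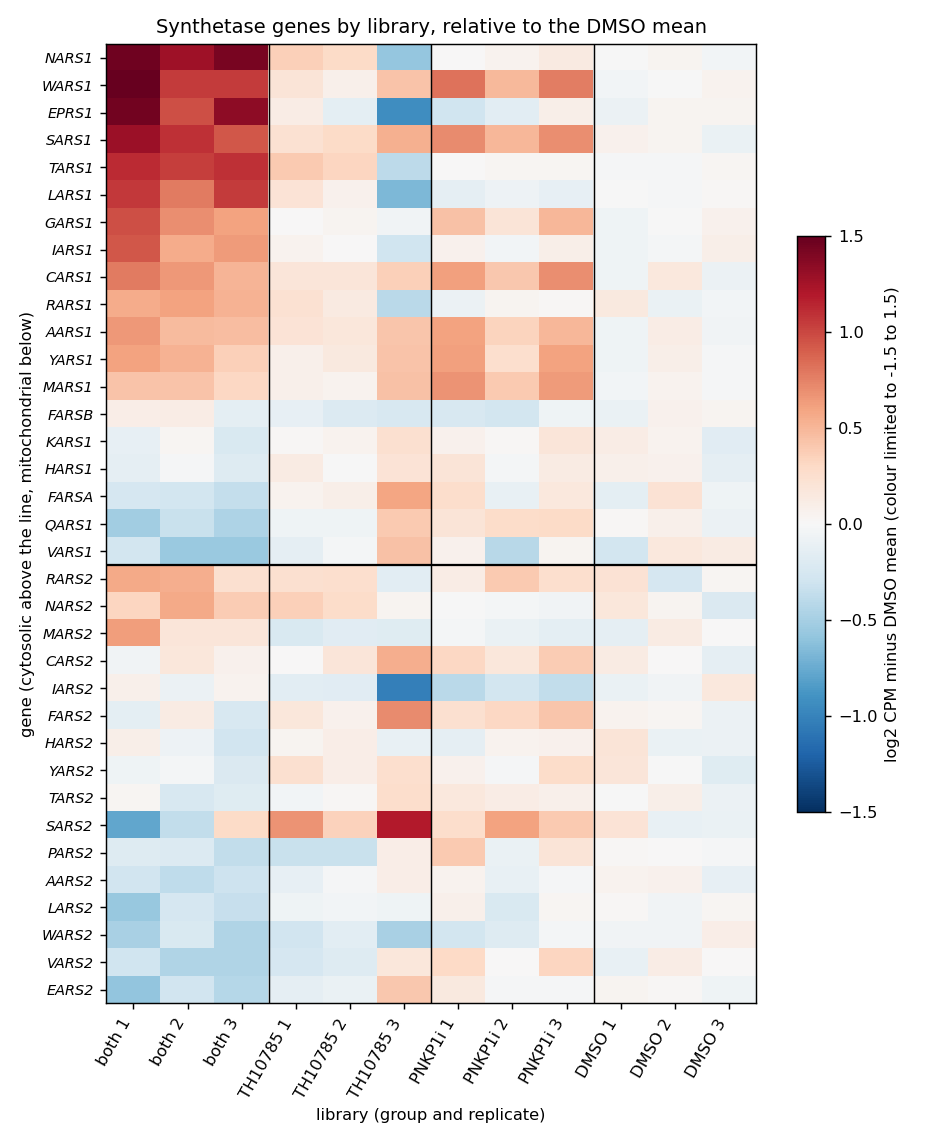
Log2 CPM minus the DMSO mean (colour, limited to -1.5 to 1.5) for the 35 synthetase genes (rows, cytosolic above the line) in the 12 libraries (columns, 3 per group, DMSO on the right). The upper cytosolic rows are high in all 3 libraries with both compounds, and the third TH10785 library differs from its partners.

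The difference between the compartments was seen in each library with both compounds. The cytosolic median minus the mitochondrial median of log2 CPM, each relative to the DMSO mean, was 0.76, 0.71 and 0.74 with both compounds. It was 0.16, 0.07 and 0.14 after TH10785 alone, 0.10, 0.06 and 0.09 after PNKP1i alone, and -0.09, 0.05 and 0.05 in DMSO cells. The groups with both compounds and with DMSO were thus far apart, while the single-compound groups lay between them and just above DMSO. This is given as a description, since the genes were chosen with results of these data known.

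Pairs of enzymes for the same amino acid showed the split most directly. In 14 of 17 pairs the cytosolic gene had the higher log2 fold change with both compounds, with a median difference of 0.70 and a range from -0.22 to 1.70. The count was 8 of 17 with TH10785 and 9 of 17 with PNKP1i. The widest pairs were EPRS1 and EARS2 for glutamate (1.70), WARS1 and WARS2 for tryptophan (1.68), EPRS1 and PARS2 for proline (1.52) and LARS1 and LARS2 for leucine (1.36). For leucine, the cytosolic gene's CPM per kilobase was 3.58 times that of the mitochondrial gene with both compounds and 1.40 times with DMSO. The 3 pairs in the other direction were FARSA and FARS2 (-0.22), VARS1 and VARS2 (-0.07) and HARS1 and HARS2 (-0.03), none of which had a cytosolic riser. EPRS1 and FARS2 each stand in 2 pairs.

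**Figure D4:**
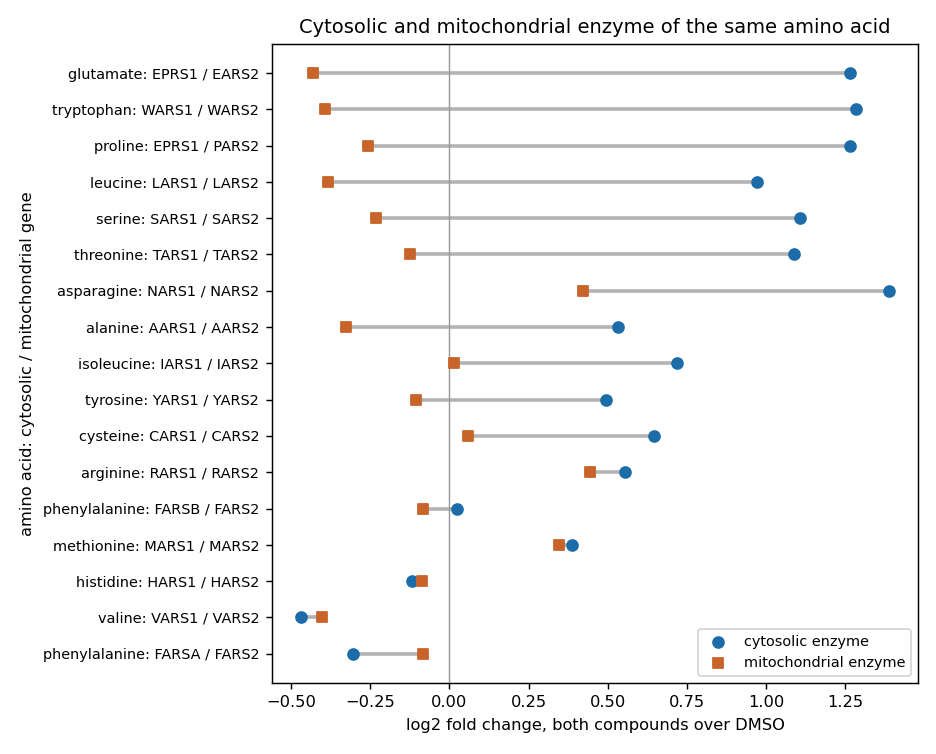
Log2 fold change for both compounds over DMSO (x axis) of the cytosolic gene (circles) and the mitochondrial gene (squares) for each amino acid (y axis), sorted by their difference. The cytosolic gene lies to the right in 14 of 17 pairs.

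GC content moved with the response to both compounds across all genes. The median log2 fold change was 0.65 over tested genes with under 40% GC and -0.36 over those with 60% or more. The median GC content was 48.6% over cytosolic, 51.2% over mitochondrial and 49.3% over all tested genes. Within genes of under 45% GC, the median log2 fold change was 0.97 over 7 cytosolic and 0.22 over 4 mitochondrial genes. At 45% or more it was 0.44 over 12 cytosolic and -0.18 over 12 mitochondrial genes, so the cytosolic median was the higher one on both sides. With offsets per library for GC content and length, 12 of the 13 cytosolic rises were kept and RARS1 was not (0.09, adjusted p = 0.463). That fit called 34.1% of all genes, 16.6% upward and 17.5% downward, against 41% without the offsets (21.3% upward, 19.7% downward). The offsets left EPRS1 at 0.97, NARS1 at 1.16, WARS1 at 1.43, SARS1 at 1.21 and LARS1 at 0.56. Of the mitochondrial calls, only the fall of WARS2 was kept (-0.77, adjusted p = 0.000219). Neither QARS1 (-0.22, adjusted p = 0.0882) nor VARS1 (-0.04) kept its call, and FARSB was called downward (-0.43, adjusted p = 0.0162). With the offsets the medians were 0.59 over cytosolic and -0.02 over mitochondrial genes.

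Neither compound alone changed a synthetase gene past edgeR's test. With TH10785, 0 of 35 were called by edgeR, by DESeq2 and by limma, where 0.561% of all genes were called by edgeR, 0.515% upward and 0.0463% downward. Without adjustment 4 genes had p under 0.05, against 14.1% of all genes. Of these, AARS1 (log2 0.26), SARS1 (0.35) and SARS2 (0.79) had higher fitted levels and IARS2 (-0.40) a lower one. SARS2 counts were low, 35 to 125 per library, and 57% of its exon bases overlap other genes. Libraries lay wholly above DMSO for 7 genes and wholly below for 4, as they did for 9.64% and 10% of all genes. The count of 0 was the same without the third TH10785 library.

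With PNKP1i alone 0 of 35 were called by edgeR, where 0.197% of all genes were (0.174% upward, 0.0231% downward), but 7 cytosolic and 0 mitochondrial genes had an unadjusted p under 0.05, against 11.3% of all genes. They were WARS1 (0.70), SARS1 (0.63), MARS1 (0.57), CARS1 (0.57), YARS1 (0.50), AARS1 (0.48) and GARS1 (0.38), all positive on the log2 scale. Libraries lay wholly above DMSO for 11 genes, 8 of them cytosolic, and wholly below for 2, as they did for 11.7% and 14.2% of all genes. SARS1 came closest, at an adjusted p of 0.0514, and its 3 PNKP1i libraries lay above all DMSO libraries, as given above. CARS1 had 189.7, 174 and 158 CPM with both compounds, 126, 125 and 142 after TH10785 alone, 169.5, 147 and 179 after PNKP1i alone and 106, 124 and 104 in DMSO cells. The PNKP1i libraries of CARS1 overlap those with both compounds and lie above DMSO. MARS1 had 602, 600.5 and 554 CPM with both compounds, 473, 464 and 605 after TH10785 alone, 715, 587 and 695 after PNKP1i alone and 437, 464 and 442 in DMSO cells, with 2 of the 3 PNKP1i libraries above every library with both compounds.

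The calls with PNKP1i changed with the fit. DESeq2 called 5 cytosolic rises with PNKP1i, where it called 0.642% of all genes, and limma-voom 1, where it called 0.208%. A fit of the 2 groups alone called 7 cytosolic rises, and also called 7.07% of all genes. Without the third TH10785 library, which is in neither group but shares the estimate of the spread, edgeR called 6 rises (AARS1, CARS1, MARS1, SARS1, WARS1 and YARS1) and 1.69% of all genes. Leaving out the first library with both compounds gave 3 rises (0.379% of all genes). The second library with both compounds and the first TH10785 library gave 1 each (0.22% and 0.23% of all genes). With the offsets for GC content and length, CARS1, MARS1, SARS1, WARS1 and YARS1 were called, and 0.497% of all genes.

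Set against each single compound, the combination again gave more rises among cytosolic than among mitochondrial genes. Over TH10785 alone, 10 cytosolic genes rose and 3 fell, and 1 mitochondrial gene rose and 4 fell, where 42.3% of all genes changed (22.7% upward, 19.7% downward). Over PNKP1i alone, 9 cytosolic genes rose and 2 fell, and 2 mitochondrial genes rose and 5 fell, where 46% changed (24.4% upward, 21.5% downward). The 9 that rose over PNKP1i were EPRS1 (1.38), NARS1 (1.32), LARS1 (1.08), TARS1 (1.06), IARS1 (0.68), WARS1 (0.59), RARS1 (0.57), SARS1 (0.47) and GARS1 (0.38). AARS1 (0.05), CARS1 (0.08), YARS1 (-0.0038) and MARS1 (-0.19) stayed within 0.19 of their PNKP1i level on the log2 scale and did not pass. The mitochondrial falls over PNKP1i were 8 without the third TH10785 library, 1 and 2 without the first and the third PNKP1i library, and 3 without the first or the third library with both compounds. The mitochondrial rises there became 1 without the first library with both compounds or any 1 of the PNKP1i libraries. The cytosolic falls became 1 without the first or the third PNKP1i library or any 1 library with both compounds. Over TH10785, the 4 mitochondrial falls became 2 without the third library with both compounds. The 1 mitochondrial rise became 0 without the first library with both compounds and 2 without the first or the second TH10785 library. With a library left out, 16.2% to 22.6% of all genes rose over TH10785 and 14.7% to 20.1% fell. Over PNKP1i, 18.6% to 26.9% rose and 16% to 24.2% fell. These comparisons and those with DMSO share libraries.

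The interaction, the change with both compounds minus the sum of the single changes on the log2 scale, passed the test in 14 of 35 genes, against 30.6% of all genes (16.5% above additivity and 14.1% below). Above additivity were 6 cytosolic genes, EPRS1, NARS1, LARS1, TARS1, IARS1 and RARS1, and 2 mitochondrial genes, IARS2 and MARS2. Below it were QARS1 and FARSA among cytosolic genes and SARS2, FARS2, EARS2 and VARS2 among mitochondrial ones. EPRS1 had single changes that summed to -0.37 and a joint change of 1.26 (interaction 1.64, SE 0.28, adjusted p = 0.00409). NARS1 had single changes that summed to 0.14 and a joint change of 1.39 (interaction 1.24, SE 0.24). SARS1, by contrast, had 0.99 from the single compounds and 1.11 with both (interaction 0.12, adjusted p = 0.642).

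**Figure D5:**
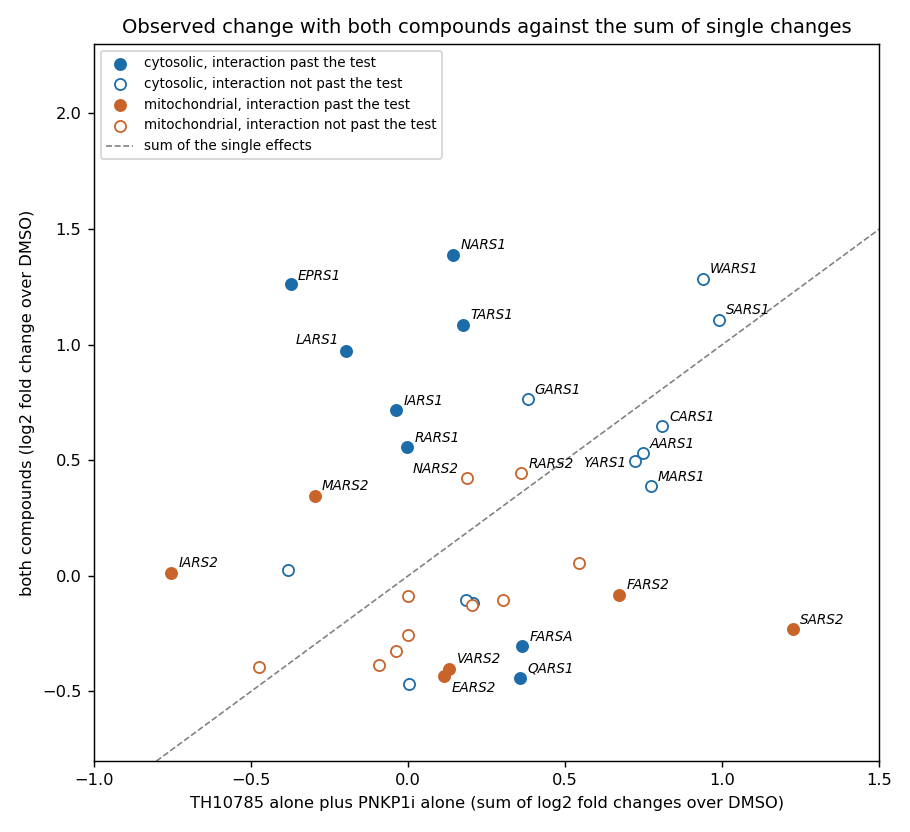
Log2 fold change for both compounds over DMSO (y axis) against the sum of the log2 fold changes for each compound alone (x axis) for the 35 synthetase genes. Points are genes, filled where the interaction passed the test, and the dashed line marks additivity. EPRS1, NARS1, LARS1 and TARS1 lie well above the line, while AARS1, CARS1, YARS1 and MARS1 lie near it or below it.

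The 13 cytosolic risers formed 2 sets. The 6 above additivity all had an unadjusted p of 0.05 or more with PNKP1i alone and a GC content of 41.4% to 44.3%. The other 7 were the same 7 genes that had an unadjusted p under 0.05 with PNKP1i alone, and their GC content was 48.6% to 55.7%. The interaction subtracts the PNKP1i change, so the 2 properties are not independent. In the third TH10785 library, synthetase genes of under 45% GC had a median of -0.40 relative to DMSO, against 0.20 and 0.07 in its partners. Without that library EPRS1, NARS1, LARS1, TARS1 and IARS1 were still above additivity and RARS1 was not, and SARS2 was the only one of the 4 mitochondrial genes still below it. The 2 mitochondrial genes above additivity became 0 without the first library with both compounds, the first or the third PNKP1i library or the third DMSO library. They became 1 without the third library with both compounds, the first or second TH10785 library, the second PNKP1i library or the second DMSO library. The 4 below became 2 without the first library of both compounds, PNKP1i or DMSO, or the second of DMSO, and 1 without the third library of any group. The 2 cytosolic genes below became 1 without the third library with both compounds, or the first or the third library of PNKP1i or DMSO. With a library left out, 10.4% to 18% of all genes were above additivity and 8.89% to 16.5% below. With the offsets, EPRS1 (1.20), NARS1 (0.97), TARS1 (0.51) and LARS1 (0.50) were still above, MARS2 (0.72) too, and QARS1 (-0.50) and HARS1 (-0.51) were below. Offsets also turned the balance over all genes, to 7.77% above and 11.1% below additivity.

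Genes that work beside the cytosolic synthetases were followed as well. In a list of 14 cytosolic partners, 13 passed the filter, and with both compounds 7 rose and 1 fell, where 21.3% of all genes rose and 19.7% fell. The median log2 fold change was 0.48 against 0.04 over all genes. XPOT, which exports transfer RNA from the nucleus, had 274, 211 and 238 CPM with both compounds, 90.5, 84.4 and 42.9 after TH10785 alone, 78.4, 85.8 and 84.3 after PNKP1i alone and 85.4, 74.3 and 82.6 in DMSO cells, and rose by 1.58 (SE 0.20). EEF1E1 and AIMP1, both scaffold proteins of the multisynthetase complex, rose by 1.38 and 1.13, while the third scaffold, AIMP2, stood at -0.26 (adjusted p = 0.0872). DTD1, which removes D-amino acids from mischarged transfer RNA, rose by 0.61. EEF1A2, an elongation factor that delivers charged transfer RNA to the ribosome, fell by 0.98. It had 464 ± 18.0 CPM with both compounds and 917 ± 135 in DMSO cells (SD, n = 3). EEF1A1, the other and more abundant EEF1A gene of the list, rose, with 9708 ± 942 CPM against 6942 ± 1269 in DMSO cells. EEF1A1 had 9074 ± 288 CPM after TH10785 alone and 9949 ± 397 after PNKP1i alone. With the offsets for GC content and length 6 of the 7 rises and the fall were kept, several at smaller values: EEF1E1 stood at 0.63 (adjusted p = 0.0413), AIMP1 at 0.42 (0.0104) and EEF1A2 at -0.52 (0.00116). Neither compound alone changed a member past edgeR's test without the offsets. With them EEF1B2, an elongation factor subunit, was called with TH10785 (0.58, adjusted p = 0.0474, against 0.124 without). Unadjusted p was under 0.05 for 5 members with TH10785 and 4 with PNKP1i, against 14.1% and 11.3% of all genes.

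In a list of 10 genes of uncharged transfer RNA sensing and the ATF4 branch, 9 rose with both compounds and 0 fell, where 21.3% of all genes rose and 19.7% fell, and the median was 0.82. With the offsets 8 of the 9 rises were kept, and EIF2S1, which encodes a subunit of the initiation factor that GCN2 phosphorylates, stood at -0.09 (adjusted p = 0.555). ATF4 had 915, 1003 and 789 CPM with both compounds, 686, 682 and 828 after TH10785 alone, 884, 808 and 965 after PNKP1i alone and 623, 550.0 and 439 in DMSO cells, and rose by 0.75 (SE 0.15) with both compounds. With PNKP1i alone ATF4 stood at 0.72 (adjusted p = 0.0585), or 0.61 with the offsets, where it was called (adjusted p = 0.0153), and its libraries overlapped those with both compounds. CEBPG, a partner of ATF4 in binding DNA, rose by 1.54. Among the known targets of ATF4, TRIB3 rose by 2.70, the asparagine synthetase gene ASNS by 2.56 and DDIT3 by 2.34 with both compounds. DDIT3 had 25.4, 14.6 and 13.0 CPM with both compounds, against 4.07, 2.57 and 3.80 in DMSO cells, without overlap. Its exons overlap those of MARS1, as given above, and what that does to the counts of either gene was not tested. Without the offsets ASNS was the 1 member that edgeR called with PNKP1i (1.49, adjusted p = 0.0043), where 0.197% of all genes were called. With TH10785 edgeR called 0 members and 0.561% of all genes. An unadjusted p under 0.05 was found for 3 members with TH10785 and 4 with PNKP1i, against 14.1% and 11.3% of all genes. EIF2AK4, the gene of the kinase GCN2, rose by 0.37 with both compounds, and GCN1, its activator, stood at -0.23 (adjusted p = 0.15).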

How the data were processed

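The deposited raw read counts per gene cover 58735 genes in 12 libraries. Per the submitters' processing notes, HISAT2 2.0.5, HTSeq 0.6.1 and DESeq2 1.30.1 were used with GRCh38; the annotation and the strand setting are not given in the sources used here. A normalized signal that the authors also deposited, counts over a size factor for each library, served only 1 alternative. Identifiers matched GENCODE release 29, which gave positions, union exon length and GC content of the longest transcript.

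The tests on counts used edgeR 4.0.16 (R 4.3.3) with filterByExpr (minimum count 10, minimum total 15), TMM, a mean per group over the 12 libraries, robust quasi-likelihood F tests, two-sided, and Benjamini-Hochberg adjustment over 17290 genes within each comparison. Log2 fold changes carry standard errors, and the biological coefficient of variation was 15.4%. Replicates were never identical (chi-square per gene 2.97 to 35.3), and each library counted as 1 sample. The gene test was tested on simulated data.

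The alternatives tried were DESeq2 1.42.0, limma 3.58.1 as voom and as trend (log2 of the deposited normalized signal plus 1), no filter, a stricter filter (CPM of 1 in 3 libraries, summed count 120), scaling by RLE or by the upper quartile, a replicate block, a fit restricted to the groups being compared, offsets from splines of GC content and length (5 degrees of freedom), and each library left out in turn. The members, gene lists and motifs were chosen with earlier results of these data known. The genes named are all 35 members, up to 4 called genes with the smallest p from each list, and ATF4, DDIT3, TRIB3 and ASNS. EEF1A1, EEF1E1, EEF1B2, AIMP2, EIF2S1, EIF2AK4, GCN1, TUFM and the fifth marker, VIM, were added after their values were seen. Promoters come from RefSeq (GRCh38.p14). Protein sequences were not used here, and the list of transfer RNA end processing and splicing is reported here only in part.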

Additional observations from a re-analysis of the deposited data

Results flagged for a closer look

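In 14 synthetase genes the effect of PNKP1i in the presence of TH10785 differed from its effect without TH10785, by edgeR's test of the difference itself (adjusted p under 0.05, 30.6% of all genes). Among cytosolic genes the difference on the log2 scale was 1.64 for EPRS1 (adjusted p = 0.00409), 1.24 for NARS1 (0.00561), 1.17 for LARS1 (0.00561), 0.91 for TARS1 (0.00811), 0.75 for IARS1 (0.00844) and 0.56 for RARS1 (0.0399). It was -0.80 for QARS1 (adjusted p = 0.00761) and -0.67 for FARSA (0.025). Among mitochondrial genes it was 0.77 for IARS2 (adjusted p = 0.0248), 0.64 for MARS2 (0.0383), -1.46 for SARS2 (0.0139), -0.75 for FARS2 (0.0298), -0.55 for EARS2 (0.0454) and -0.53 for VARS2 (0.0371). Over 22 alternatives EPRS1, NARS1, LARS1, TARS1 and QARS1 held in 22, IARS1 and SARS2 in 20, and the other 7 in 9 to 15.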

How the results depend on the processing

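Over the alternatives tried, 11 of the 13 cytosolic rises with both compounds over DMSO held in all 23; MARS1 held in 20 and RARS1 in 21. The mitochondrial calls held in 11 to 18 of the 23. The count of cytosolic rises itself was 12 to 13 with a library left out, and the compartment difference in median log2 fold change 0.65 to 0.72. With a library left out, cytosolic falls over DMSO numbered 0 to 3, mitochondrial rises 0 to 3 and mitochondrial falls 1 to 5. Of all genes, 14.2% to 26.1% rose in those fits and 14.8% to 21.4% fell.

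For PNKP1i over DMSO, cytosolic rises (0) became 1 with upper-quartile scaling, limma-voom, limma-trend or the stricter filter, 5 with DESeq2, no filter or the offsets, 4 with offsets and block, 7 with only the groups compared, where 1 mitochondrial gene also fell, and 0 to 6 with a library left out. The share of all genes called was 7.07% with only the groups compared and 1.69% without the third TH10785 library, which gave the 6, against 0.197% as reported. It was 0.197% with upper-quartile scaling, 0.208% with limma-voom, 0.22% with limma-trend and 0.228% with the stricter filter. With DESeq2 it was 0.642%, with no filter 0.543%, with the offsets 0.497% and with offsets and block 0.347%. The compartment difference (0.03) became 0.13 with the offsets, with or without the block; for TH10785 it was 0.06, and 0.055 to 0.14 with a library left out.

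For both over DMSO, mitochondrial rises (2) became 1 with no filter, only the groups compared or the block, and 0 with the offsets. Mitochondrial falls (5) became 2 with no filter and 1 with the offsets. Cytosolic falls (2) became 1 with the offsets. Of all genes, 19.9% were called with no filter, 44.6% with only the groups compared, 37.3% with the block and 34.1% with the offsets. For both over TH10785, mitochondrial falls (4) became 7 with DESeq2 and 2 with no filter, only the groups compared, the block or the offsets, and mitochondrial rises (1) became 2 with limma-voom or no filter and 0 with only the groups compared; with a library left out the ranges were 2 to 5 and 0 to 2. Cytosolic falls there (3) became 1 with offsets and block. Of all genes, 43.6% were called there with DESeq2, 43.7% with limma-voom, 20.2% with no filter and 30.6% with only the groups compared. The share was 39% with the block, 33.3% with the offsets and 30% with offsets and block, against 42.3% as reported. For both over PNKP1i, mitochondrial falls (5) became 2 with no filter or the offsets, 3 with the block and 1 with offsets and block. Mitochondrial rises (2) became 1 with the offsets, and cytosolic falls (2) 1 with the block, with or without offsets. Leaving libraries out gave 1 to 8, 1 to 3 and 1 to 3. Of all genes, 21.6% were called there with no filter, 42.5% with the block and 32.7% with the offsets. The share was 29.3% with offsets and block, against 46% as reported. For the interaction, mitochondrial genes above additivity (2) became 1 with no filter, the block or the offsets. Those below (4) became 1 with the block and 0 with the offsets, and cytosolic genes below (2) became 1 with offsets and block. Leaving libraries out gave 0 to 2, 1 to 5 and 1 to 2. Of all genes, 15.1% passed the interaction test with no filter, 26% with the block and 18.9% with the offsets. With offsets and block 15% passed, against 30.6% as reported.

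With the offsets FARSB turned to -0.43 for both over DMSO (-0.42 with the block) and RARS2 to -0.0181 (-0.02 with the block). AARS2 turned to 0.0212 over TH10785 (0.0205 with the block), to 0.0929 over PNKP1i with or without the block and, with the block, to 0.0003 over DMSO. The cause was not tested. Replicate numbers did not pair the samples: same-numbered libraries correlated at -0.26 to 0.13, and 1 of 12 correlated best with its own number. The block left the cytosolic rises over DMSO within 1.5 times. SARS2 had 35 to 125 counts per library, which limits its precision.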

Other observations

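In a list of 15 mitochondrial charging and elongation partners, 5 rose and 2 fell with both compounds over DMSO (46.7%, where 41% of all genes changed), with a median log2 fold change of 0.40. MTIF2, the mitochondrial initiation factor, rose by 1.14 (SE 0.25), MTO1, which modifies mitochondrial transfer RNA, by 0.57, GFM2, a mitochondrial ribosome recycling factor, by 0.61 and MTRF1, a release factor, by 0.87. The lowest log2 fold change of the list was -0.43. TUFM, the most abundant gene of the list, had 251 ± 22.6 CPM with both compounds and 338 ± 21.4 in DMSO cells (SD, n = 3). With offsets for GC content and length, 1 of the 5 rises, that of MTIF2 (now 0.69, adjusted p = 0.00312), and 0 of the 2 falls were kept.

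Among genes of transfer RNA end processing and splicing, TRNT1, which adds the CCA end to which the amino acid is joined, had 18.2, 13.8 and 17.3 CPM with both compounds, 10.6, 7.71 and 5.71 after TH10785 alone, 5.69, 7.86 and 8.94 after PNKP1i alone and 7.12, 7.39 and 7.49 in DMSO cells. The libraries with both compounds lay above all others, and TRNT1 rose by 1.16 (SE 0.22) over DMSO. TSEN15, a subunit of the splicing endonuclease, rose by 0.81. ELAC2, which removes the trailing sequence before the CCA end is added, fell by 0.50. With the offsets the rise of TRNT1 (0.53, adjusted p = 0.0149) and the fall of ELAC2 (-0.29, adjusted p = 0.0289) were kept at smaller values, and the rise of TSEN15 was not. Neither compound alone changed a member of the list of mitochondrial partners past edgeR's test. Without adjustment, 1 member had p under 0.05 with TH10785 and 0 with PNKP1i, against 14.1% and 11.3% of all genes.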
